A study of Mus musculus with 18 samples.

Results

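The arrays measured 5 tissue kallikrein genes (Klk1, Klk1b3, Klk1b4, Klk1b9 and Klk1b24) and 3 Dcpp genes (Dcpp1, Dcpp2 and Dcpp3), 8 of the 17928 genes tested, in mouse thyroid. These genes were chosen for their levels across the 4 groups of the study, so their differences are given as a description and without p-values. Where members are counted past the limma threshold, the count stands beside the share of all genes and describes them only. Every probe whose accession mapped to one of them was used, which gave 10 probes, with 2 each for Klk1b3 and Dcpp1 and 1 for every other gene. All 8 passed the filter on dim signal, which asked for 4 of 18 arrays well above background. For all 8 genes the signal was well above background on every WT low-iodine array.

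The mice were C57BL/6, 1 month old, either wild type (WT) or Glis3KO2 (KO2, in which the zinc finger transcription factor gene Glis3 is targeted). On a normal NIH31 diet there were 5 WT and 5 KO2 thyroids, and after 6 days on a Harlan low-iodine diet 4 WT and 4 KO2 thyroids. The deleted part of Glis3, the sex of the mice and whether any RNA was pooled are not given in the sources used here. Each array is labelled as 1 sample of its group. Slides 1, 2 and 3 hold the normal-diet arrays and slides 4 and 5 the low-iodine arrays, which were scanned on another instrument, so the effects of diet and of array set cannot be told apart. Each slide holds both genotypes in equal numbers. Of 9 follicular cell markers at least 8 were well above background on every array. The 1 Glis3 probe ran from −6.08 to −4.78 in WT and −5.46 to −4.16 in KO2 on the normal diet, and from −1.60 to −0.74 and −4.06 to −1.49 on low iodine. The genotypes overlapped on both diets, and whether this probe lies in the deleted part is not given, so it does not check the genotype labels. The share of spots well above background ran from 60.1% to 75.7% per normal-diet array and from 76.7% to 90.6% per low-iodine array. Precision rests on how few arrays there are. Levels are log2 of the processed signal minus the 75th percentile of the same array, and differences are KO2 minus WT on that scale with the standard error (SE) of the limma fit over all 18 arrays. In bulk tissue, fewer cells of a type and less RNA per cell cannot be told apart.

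Tissue kallikreins are secreted serine proteases, and Klk1 is the one that releases kinin peptides from kininogen. In the mouse the Klk1 gene has been copied many times, and its Klk1b relatives are best known from the granular duct cells of the submandibular gland, where several respond to androgen and thyroid hormone. The Klk1b3 and Klk1b4 proteins are the gamma and alpha subunits that bind nerve growth factor, and Klk1b9 is an epidermal growth factor-binding protein. Dcpp genes encode small secreted proteins first found in demilune cells of the sublingual gland and in the parotid gland. Both families consist of near-identical copies, so a probe may read more than 1 of them. The probe sequences were not used here, and single genes of either family are uncertain for this reason.

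The 5 kallikrein members lie in a cluster on chromosome 7 that holds all 15 Klk1 subfamily genes of the list used here (chr7:43945012-44229622 of GRCm38.p6, 284.6 kb). Klk1b24, Klk1b3, Klk1b4 and Klk1 stand near its end and Klk1b9 stands closer to its start. The 3 Dcpp genes lie next to each other within 38.8 kb of chromosome 17 (chr17:23880669-23919441). The 150 bases before the start site are shown for the 3 kallikreins whose groups did not overlap on the normal diet and for the 3 Dcpp genes, to show how alike the copies are within a family. The sequences are from the RefSeq table of GRCm38.p6, 5′ to 3′. For Dcpp1, Dcpp3 and Klk1b24 the start site used lies downstream of the annotated gene start (chr17:23880669, chr17:23917419 and chr7:44188234). The Dcpp1 window thus lies inside the annotated gene, and those of Dcpp3 and Klk1b24 end inside it. Capitals mark TTTTAAAG, TATAAGG and ACCCCCCA, the last being TGGGGGGT read on the other strand.
Klk1b9 (chr7:43975911-43976060, plus strand): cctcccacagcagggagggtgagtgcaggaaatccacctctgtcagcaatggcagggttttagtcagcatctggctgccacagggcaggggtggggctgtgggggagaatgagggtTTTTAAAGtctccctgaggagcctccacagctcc
Klk1b24 (chr7:44188086-44188235, plus strand): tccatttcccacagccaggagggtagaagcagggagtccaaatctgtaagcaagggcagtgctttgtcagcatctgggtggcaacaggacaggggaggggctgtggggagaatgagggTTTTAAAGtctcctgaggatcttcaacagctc
Klk1b3 (chr7:44198041-44198190, plus strand): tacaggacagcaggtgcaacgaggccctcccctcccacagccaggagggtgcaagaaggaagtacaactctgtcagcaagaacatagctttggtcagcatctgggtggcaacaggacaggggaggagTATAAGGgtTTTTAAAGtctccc
Dcpp1 (chr17:23880726-23880875, plus strand): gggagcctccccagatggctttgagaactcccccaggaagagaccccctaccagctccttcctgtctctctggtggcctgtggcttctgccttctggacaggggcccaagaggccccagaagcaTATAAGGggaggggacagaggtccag
Dcpp2 (chr17:23898572-23898721, plus strand): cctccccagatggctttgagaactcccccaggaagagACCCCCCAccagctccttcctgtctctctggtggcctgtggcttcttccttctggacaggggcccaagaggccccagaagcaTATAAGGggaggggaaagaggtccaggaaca
Dcpp3 (chr17:23917308-23917457, plus strand): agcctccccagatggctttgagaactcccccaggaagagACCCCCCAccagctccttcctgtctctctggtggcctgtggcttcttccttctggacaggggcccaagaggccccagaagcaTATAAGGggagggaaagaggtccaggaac

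Over windows of 300 bases (250 before to 50 after the start), the 3 Dcpp promoters were 96.6% to 97.3% identical to each other in local alignments of 296 to 300 columns. The 5 kallikrein promoters were 78.7% to 87.3% identical over 204 to 302 columns in 10 pairs. Searched on both strands, TTTTAAAG was present in the windows of Klk1b3, Klk1b4, Klk1b9 and Klk1b24 and in 2.58% of 27025 mouse promoters. TATAAGG was present in all 3 Dcpp windows and in that of Klk1b3, against 2.21% of all promoters. Both of these motifs were chosen after the sequences had been seen, and neither overlaps the other in the window of Klk1b3. The TATA box letters TATAAA were in none of the 8 windows and in 14.2% of all promoters. TGGGGGGT, the core of the GLIS binding site, was present in the windows of Dcpp2 and Dcpp3 and in 1.48% of all promoters. TGACG, letters of the cAMP response element, was found in those of Dcpp1 and Dcpp3 (21.0% of all). AGAACA, letters of the androgen response element, was found in those of Klk1b3 and Klk1b24 (19.0% of all). A match describes the letters and shows no binding.

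On the normal diet the kallikreins were lower in KO2 than in WT thyroids, and the median difference of the 5 members was −2.24. The 3 members Klk1b3, Klk1b9 and Klk1b24 had an adjusted p under 0.05 for lower levels in KO2, as had 0.898% of all genes. No member was higher at that threshold, against 0.513% of all genes. The same 3 members had groups that did not overlap with KO2 lower, as had 1.66% of all genes, and none did not overlap with KO2 higher (1.86% of all genes). The members were chosen on these values, so the counts carry no weight of their own. The median difference over all genes was 0.04.

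Klk1b9, the epidermal growth factor-binding protein gene, stood at 0.43, 0.91, 1.20, 1.81 and 0.15 in WT replicates 1 to 5. The KO2 arrays, in the same order, read −3.58, −2.24, −4.73, −0.26 and −2.57. All KO2 arrays lay below all WT arrays, with KO2 replicate 4 nearest to WT and replicate 3 lowest. The difference was −3.58 ± 0.61 (SE), which is 11.9-fold lower in KO2, and within slides 1, 2 and 3 it was −2.67, −3.55 and −4.06. Without KO2 replicate 4 it was −4.18.

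Klk1b24, another serine protease of the subfamily, was 0.17, 1.26, 1.16, 1.68 and −0.27 in WT replicates 1 to 5. Its KO2 levels were −2.91, −2.25, −5.17, −0.30 and −2.01. The highest KO2 array (replicate 4, −0.297) reached almost to the lowest WT array (replicate 5, −0.269), and the groups just failed to overlap. The difference was −3.33 ± 0.64 (SE), with −2.42, −3.94 and −3.16 within slides 1, 2 and 3.

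Klk1b3, the gamma subunit gene, was −0.83, −0.32, −0.03, 0.81 and −0.64 in WT replicates 1 to 5 by its brighter probe. Its KO2 arrays read −2.65, −2.59, −4.01, −0.97 and −1.96. The groups did not overlap, and the same KO2 arrays stood highest and lowest as for the other kallikreins. The difference was −2.24 ± 0.44 (SE), or 4.72-fold, with −1.77, −2.32 and −2.40 within the 3 slides. Its dimmer probe gave a smaller difference of −1.17, and there KO2 replicate 4 (−1.75) lay above WT replicates 1 (−2.14) and 5 (−2.13).

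Klk1b4, the alpha subunit gene, was −1.74, −0.99, −0.94, −0.24 and −1.72 in WT and −3.09, −3.20, −4.18, −1.62 and −2.63 in KO2. KO2 replicate 4 lay above WT replicates 1 and 5, and the other KO2 arrays lay below every WT array. The difference was −1.82 ± 0.45 (SE). Klk1, the kinin-releasing enzyme, was −2.97, −2.34, −2.17, −1.56 and −2.21 in WT and −3.83, −3.81, −4.15, −2.76 and −2.93 in KO2. KO2 replicates 4 and 5 lay just above WT replicate 1, and the difference of −1.24 ± 0.41 (SE) was the smallest of the 5. Within slides 1, 2 and 3 the differences of Klk1 (−0.83, −1.20 and −1.49) and of Klk1b4 (−1.46, −1.94 and −1.88) all had the same sign.

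KO2 replicate 4 had the smallest share of spots well above background of all arrays (60.1%). Fitted on the 10 normal-diet arrays alone, with their own estimate of the spread, none of the 8 members passed the threshold. In that fit 0 of 17928 genes were lower and 3 higher in KO2 by limma, against 1314 and 1247 at an unadjusted p under 0.05. The differences themselves were the same.

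**Figure D1:**
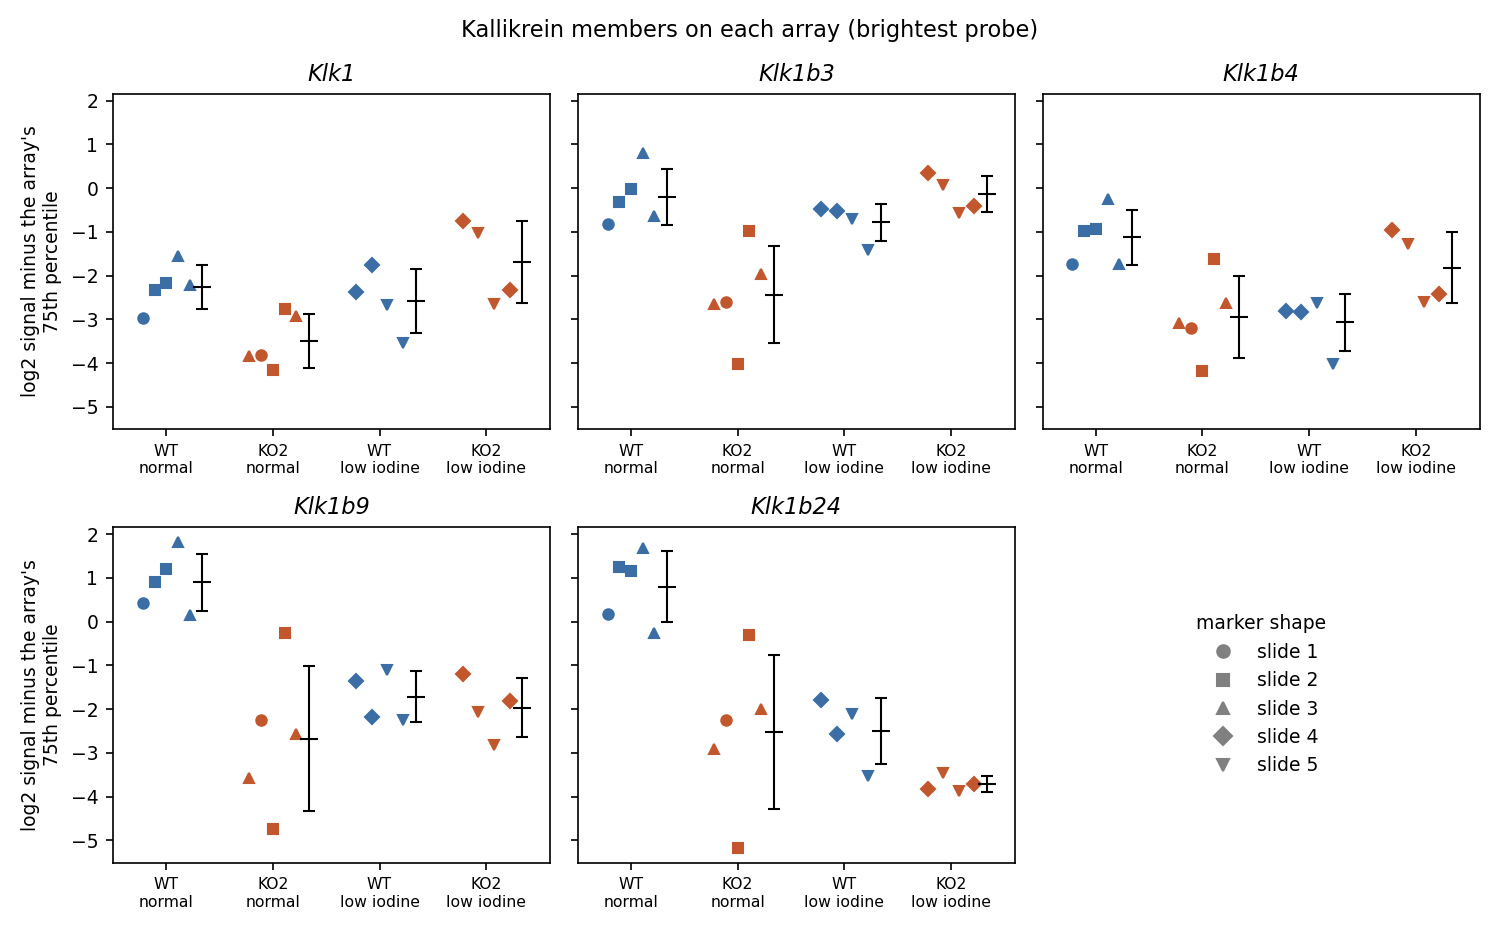
Level of each kallikrein member (log2 signal minus the array's 75th percentile) in the 4 groups; each point is 1 array, blue for WT and orange for KO2, its shape is the slide, and black bars are the group mean ± SD (n = 5 on the normal and 4 on the low-iodine diet). On the normal diet the KO2 points of Klk1b3, Klk1b9 and Klk1b24 lie below all WT points, with KO2 replicate 4 nearest to them, and on low iodine Klk1b24 is the member with the lowest KO2 points (−3.88 to −3.46).

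On the low-iodine diet the kallikreins showed no common direction. The median difference of the 5 was 0.64, and none of them had an adjusted p under 0.05. Klk1b4 was −2.81, −2.82, −2.63 and −4.03 on the WT arrays and −0.97, −1.28, −2.60 and −2.42 on the KO2 arrays. All KO2 arrays lay above all WT arrays, though KO2 replicate 3 exceeded WT replicate 3 by little. Klk1b4 was thus the 1 member whose groups did not overlap with KO2 higher, as was the case for 10.7% of all genes. The difference was 1.26 ± 0.51 (SE), and 0.94 without WT replicate 4, the lowest array.

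Klk1b3, by its brighter probe, was −0.49, −0.53, −0.70 and −1.41 in WT and 0.34, 0.06, −0.56 and −0.40 in KO2. The groups overlapped, and the difference was 0.64 ± 0.49 (SE), against 0.13 by the dimmer probe. Klk1 was −2.37, −1.76, −2.68 and −3.53 in WT and −0.76, −1.03, −2.64 and −2.33 in KO2. KO2 replicates 1 and 2 stood above all WT arrays, the other KO2 arrays lay among them, and the difference was 0.89 ± 0.46 (SE).

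Klk1b9 was −1.36, −2.18, −1.10 and −2.26 in WT and −1.19, −2.07, −2.82 and −1.81 in KO2, with a difference of −0.25 ± 0.68 (SE). The groups covered much the same range, and within slides 4 and 5 the differences were 0.27 and −0.77. Klk1b24 was −1.79, −2.58, −2.11 and −3.52 in WT and −3.82, −3.46, −3.88 and −3.72 in KO2. The KO2 arrays were tightly grouped at the level of the lowest WT array (replicate 4), and the difference was −1.22 ± 0.72 (SE).

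Between the diets, the genotype difference moved upwards for all 5 kallikreins, by 2.11 ± 0.97 (SE) for Klk1b24, 2.14 ± 0.62 for Klk1, 2.88 ± 0.66 for Klk1b3, 3.07 ± 0.68 for Klk1b4 and 3.33 ± 0.92 for Klk1b9. By the dimmer probe of Klk1b3 it moved by 1.30. For Klk1b3 and Klk1b4 this genotype by diet interaction had an adjusted p under 0.05, as it had for 1.23% of all genes in either direction. With slide as a block neither passed. Both calls were also lost without any 1 of WT normal-diet replicates 2, 3 and 4, KO2 normal-diet replicates 1 and 2, WT low-iodine replicates 1, 3 and 4, and KO2 low-iodine replicates 1 and 2. That of Klk1b4 was lost without KO2 normal-diet replicate 3, and that of Klk1b3 without WT low-iodine replicate 2 or KO2 low-iodine replicate 4. The differences then still lay between 2.63 and 3.22. Shifts that an array set gives equally to both genotypes cancel in this contrast, and other shifts do not.

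Ordered by mean level, Klk1b9 and Klk1b24 were highest in WT on the normal diet, where all arrays lay above every array of the other 3 groups, though KO2 normal-diet replicate 4 came close. For Klk1b9 the order went on with WT low iodine (−1.72 ± 0.58 SD, n = 4), KO2 low iodine (−1.97 ± 0.68, n = 4) and KO2 normal diet (−2.68 ± 1.66, n = 5), 3 groups whose arrays overlapped. Klk1b24 followed with WT low iodine (−2.50 ± 0.75, n = 4) and KO2 normal diet (−2.53 ± 1.76, n = 5), which did not differ beyond their spread, and KO2 low iodine (−3.72 ± 0.18, n = 4). Klk1b3 and Klk1 were lowest in KO2 on the normal diet, and their other 3 groups overlapped each other. Klk1b4 was highest in WT on the normal diet (−1.13 ± 0.63, n = 5), followed by KO2 low iodine, KO2 normal diet and WT low iodine (−3.07 ± 0.64, n = 4), and neighbours in this order overlapped.

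The rest of the Klk1 subfamily, 10 genes that were not members, had 8 with a probe and 7 measured. Among these 7, normal-diet levels were lower in KO2 for 3 by limma, higher for 0 and did not pass for 4, with a median difference of −2.46. With Klk1b11 at its bound the median was −1.63. Both medians include Klk1b1 (−1.03), which was not well above background on any normal-diet array, so its sign there is uncertain. Klk1b27 differed by −2.46 ± 0.49 (SE, adjusted p = 0.0175) and Klk1b8 by −1.35 ± 0.31 (SE, adjusted p = 0.0423), a call lost with slide as a block and in 15 of 28 alternatives. Klk1b11 was below the detection limit (not well above background) on all 5 normal-diet KO2 arrays and was at least 1.64-fold lower there. Its adjusted p of 0.00641 by limma belongs to the difference as measured (−2.49), and the bound was not tested. With normexp the difference was −0.18 and the call was lost. Klk1b26 (−3.17 ± 0.83 SE, adjusted p = 0.0700) and Klk1b16 (−2.85 ± 0.83 SE, adjusted p = 0.110), both among the genes most correlated with the members, did not pass. On low iodine Klk1b11 alone passed by limma, lower in KO2 by a difference of −1.42 ± 0.43 (SE, adjusted p = 0.0353). That call was lost in 7 of 28 alternatives, among them normexp, where the difference was −0.52. The median of the 7 genes on low iodine was −0.77. These genes share sequence with the members, and their probes may read the same transcripts.

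**Figure D2:**
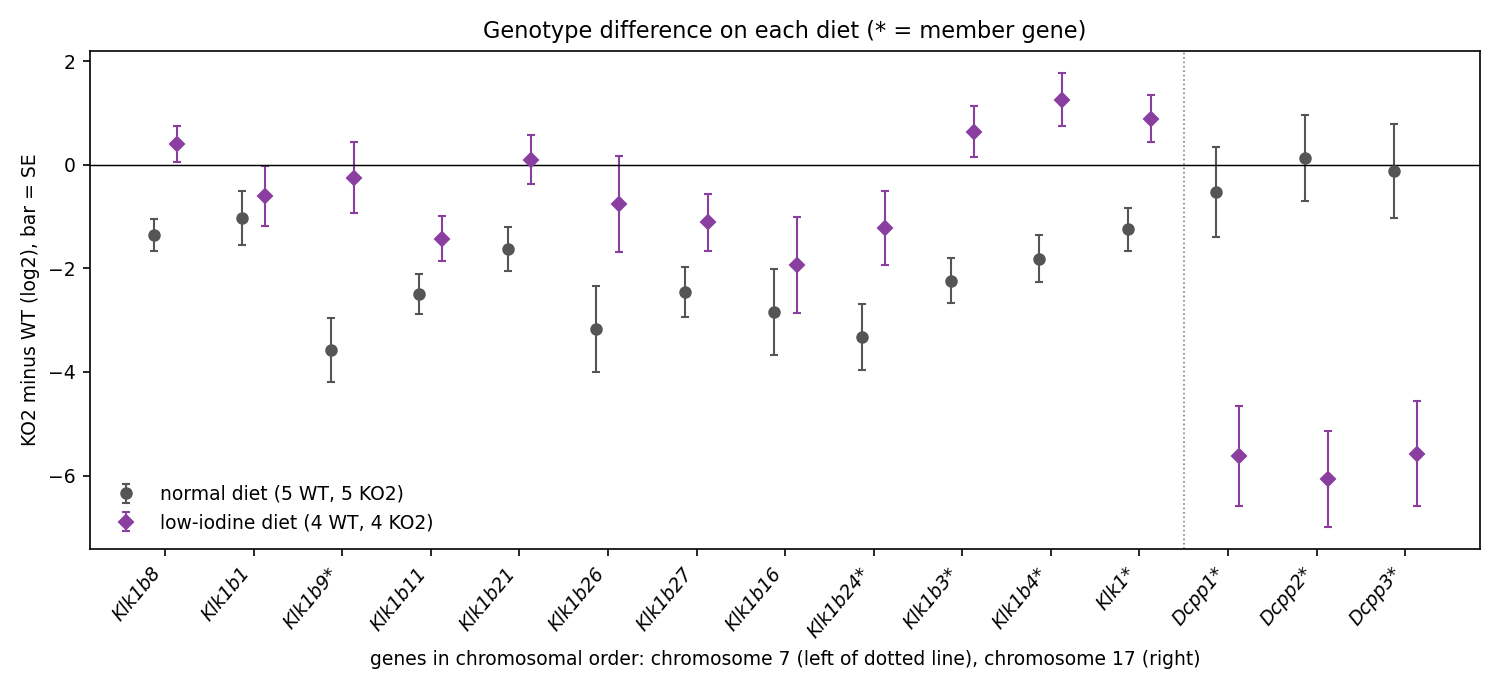
Difference between KO2 and WT (log2, bars are the SE of the limma fit) for each measured Klk1 subfamily and Dcpp gene in chromosomal order, grey circles on the normal diet and purple diamonds on low iodine; members carry an asterisk. All kallikreins lie below 0 on the normal diet (down to −3.58 for Klk1b9), and the Dcpp genes lie near 0 there and between −6.06 and −5.58 on low iodine. The normal-diet value of Klk1b11 rests on KO2 arrays below background, and that of Klk1b1 on arrays of both genotypes below background.

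The Dcpp genes gave a different picture. On the low-iodine diet they were 47.7-fold to 66.7-fold lower in KO2 than in WT. All 3 had an adjusted p under 0.05 for lower levels in KO2, as had 7.16% of all genes, and no member was higher at that threshold (7.8% of all genes). All 3 had groups that did not overlap with KO2 lower, against 9.06% of all genes. Again the genes were chosen on these values. The median difference over all genes was −0.02.

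Dcpp1 was 6.11, 5.29, 6.23 and 5.86 in WT replicates 1 to 4 on low iodine by its brighter probe. The 4 KO2 arrays read −0.01, 1.496, 0.11 and −0.61. Every WT array lay far above every KO2 array, and KO2 replicate 2 was the highest of its group. The difference was −5.63 ± 0.97 (SE), and the second probe of the gene gave −6.19.

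Dcpp2 was 5.86, 5.14, 6.04 and 5.50 in WT and −0.81, 0.50, −0.36 and −1.02 in KO2. The order of the arrays within each group was the same as for Dcpp1, and the groups lay apart in the same way. The difference was −6.06 ± 0.93 (SE), the fourth lowest of 17928 genes.

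Dcpp3 was 6.30, 5.52, 6.46 and 5.94 in WT and −0.09, 1.91, 0.52 and −0.42 in KO2. It showed the same gap with the same array at the top of each group, WT replicate 3 and KO2 replicate 2. The difference was −5.58 ± 1.02 (SE). Within slides 4 and 5 the differences were −6.01 and −5.24 for Dcpp1, −6.42 and −5.70 for Dcpp2 and −6.17 and −4.99 for Dcpp3.

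With the normal diet the Dcpp genes were dim and the genotypes overlapped. Dcpp1 was −1.97, −2.68, −2.88, −4.30 and −2.67 in WT and −2.38, −4.80, −4.52, −5.85 and 0.40 in KO2. KO2 replicate 5 stood above all WT arrays and KO2 replicates 2, 3 and 4 below all of them. The difference was −0.53 ± 0.86 (SE), and −1.49 without replicate 5.

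Dcpp2 was −4.43, −6.14, −5.41, −6.34 and −4.51 in WT and −4.28, −7.12, −6.78, −6.58 and −1.44 in KO2. It was well above background on 3 of 5 WT arrays and 2 of 5 KO2 arrays, again with KO2 replicate 5 highest. The difference was 0.12 ± 0.83 (SE), and −0.83 without replicate 5.

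Dcpp3 was −2.05, −3.40, −3.22, −4.11 and −2.87 in WT and −2.04, −4.63, −4.41, −5.94 and 0.74 in KO2. Once more KO2 replicate 5 stood highest and KO2 replicates 2, 3 and 4 lowest, and the difference was −0.13 ± 0.91 (SE), or −1.13 without replicate 5. The sign of the difference turned with the slide. Within slide 1 (1 array of each genotype) the 3 genes differed by −2.83, −2.69 and −2.58, within slide 2 by −2.41, −0.91 and −1.86, and within slide 3, which holds KO2 replicate 5, by 2.50, 2.56 and 2.83.

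Between the diets the WT arrays differed by more than the genotypes did. In WT, low iodine minus normal diet was 8.78 ± 0.92 (SE) for Dcpp1, 11.004 ± 0.88 for Dcpp2 and 9.18 ± 0.96 for Dcpp3, as measured. That of Dcpp2 rests on WT normal-diet arrays of which 2 of 5 were not well above background, so its size is uncertain. In KO2 the same differences were 3.68 ± 0.92, 4.82 ± 0.88 and 3.74 ± 0.96. The arrays of the 2 diets were hybridised and scanned as separate sets, so a diet difference and a difference between array sets cannot be told apart. Sex-linked signal differed between the diets too. The Y chromosome gene Eif2s3y was not well above background on any normal-diet array. It was between 2.01 and 2.82 on WT low-iodine replicates 1 and 2 and KO2 low-iodine replicates 1, 2 and 3. The part of sex in the diet contrasts was not tested. Over all genes the 1st and 99th percentiles of low iodine minus normal diet in WT were −4.05 and 5.59. For the kallikreins the WT differences were −0.33 ± 0.44 (SE) for Klk1, −0.58 ± 0.46 for Klk1b3 and −1.95 ± 0.48 for Klk1b4. For Klk1b9 and Klk1b24 they were −2.62 ± 0.65 and −3.30 ± 0.68. All of them lay between those percentiles of all genes. The kallikrein median of −1.95 ran from −3.08 with quantile normalization to −1.05 with normexp. In KO2 the kallikreins differed by −1.19 (Klk1b24) to 2.30 (Klk1b3). The genotype difference of the Dcpp genes was lower on low iodine than on the normal diet, with a change between −6.18 and −5.10 on the log2 scale. Those of Dcpp1 and Dcpp3 did not pass. That of Dcpp2 had an adjusted p under 0.05, as had 1.23% of all genes in either direction. It also rests on these dim normal-diet arrays. The call was lost without WT low-iodine replicate 3 (−6.05) or KO2 low-iodine replicate 4 (−5.985). By mean level every Dcpp gene was highest in WT low iodine and next in KO2 low iodine. KO2 low iodine overlapped KO2 on the normal diet for Dcpp1 and Dcpp3 through KO2 normal-diet replicate 5, and did not overlap it for Dcpp2. The WT and KO2 groups on the normal diet did not differ beyond their spread.

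**Figure D3:**
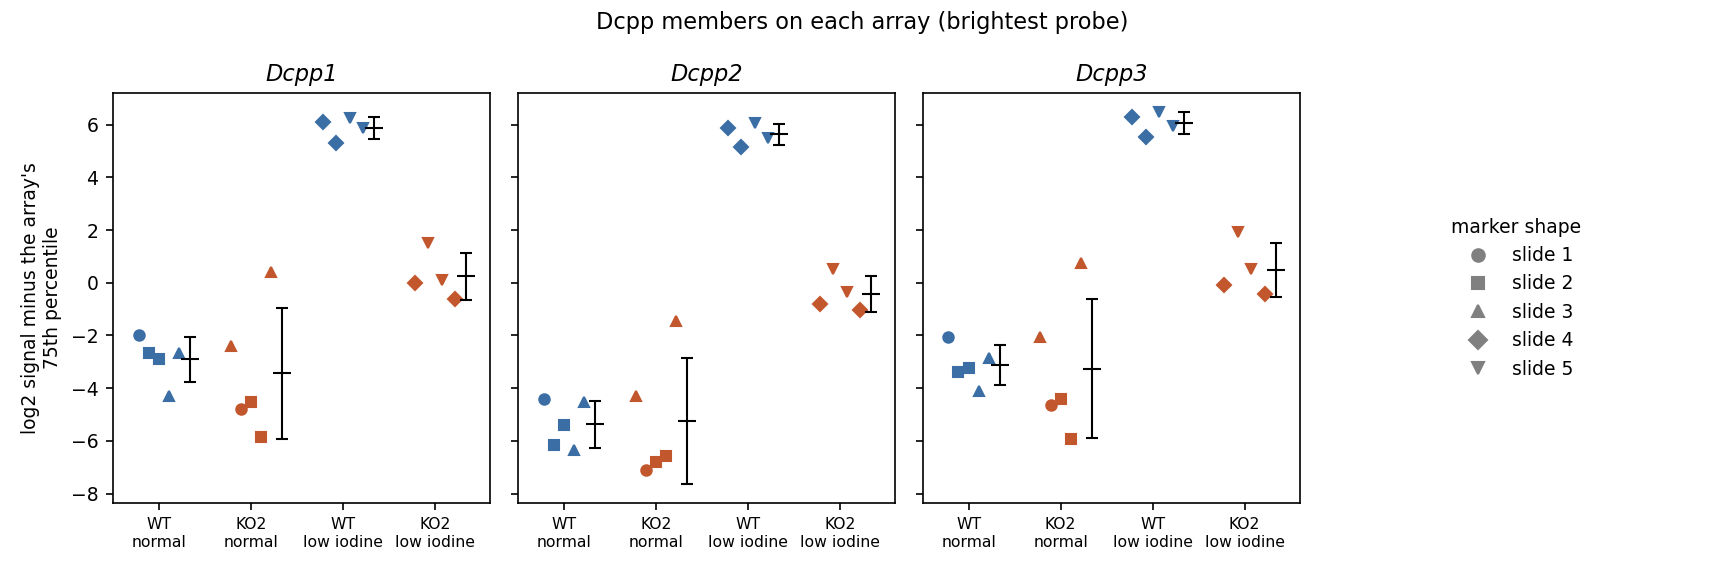
Level of each Dcpp gene (log2 signal minus the array's 75th percentile) in the 4 groups; each point is 1 array, blue for WT and orange for KO2, its shape is the slide, and black bars are the group mean ± SD (n = 5 on the normal and 4 on the low-iodine diet). WT low-iodine arrays lie between 5.14 and 6.46 for all 3 genes, KO2 low-iodine arrays between −1.02 and 1.91, and 1 KO2 normal-diet array (replicate 5) stands above the rest of its group.

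After each gene was centred within its group, the 3 Dcpp genes correlated with each other at r = 0.94 to 0.99 over the 18 arrays, and the kallikreins at r = 0.56 to 0.94 over 10 pairs. Kallikreins and Dcpp genes correlated at r = −0.31 to 0.11 over 15 pairs. The arrays of a pair share hybridisation and scaling, and the copies within a family may share probe signal, so these values describe the arrays only. The non-member genes most like the kallikrein mean were 4 more of the subfamily, Klk1b27 (r = 0.90), Klk1b8 (0.90), Klk1b16 (0.88) and Klk1b26 (0.87), then Map9 (0.85) and Clu (0.84). Without centring these were 0.85, 0.87, 0.83, 0.91, 0.05 and 0.53. Those most like the Dcpp mean were Norad (0.84), Rp2 (0.84), Akt1s1 (0.81), Sorbs3 (0.79), Sf3b3 (0.79) and Got1 (0.79). Their uncentred values (−0.72, 0.87, −0.79, 0.82, 0.82 and −0.42) differed in sign between genes.

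Of the other kallikrein-related peptidases, which lie outside the Klk1 subfamily, 10 of 12 were measured. None passed in either direction on the normal diet by limma (median 0.11), and 1 was lower at an unadjusted p under 0.05. On low iodine Klk8, a serine protease known from brain and skin, was lower in KO2 by a difference of −1.88 ± 0.43 (SE, adjusted p = 0.00723), 9 did not pass and the median was 0.08. Of 14 genes of the kinin system, on which Klk1 acts, none passed on the normal diet (median 0.25), and 2 were higher at an unadjusted p under 0.05. On low iodine 1 was lower and 2 were higher in KO2, with a median of −0.13. Cpn1, a subunit of a carboxypeptidase that inactivates kinins, did not reach well above background in KO2 (0 of 4 arrays) and was at least 3.88-fold lower. Its adjusted p of 0.00267 by limma belongs to the difference as measured (−2.68), and the bound was not tested. With normexp the difference was −0.59 and the call was lost. Ace, which also degrades kinins, was higher by 0.55 ± 0.14 (SE, adjusted p = 0.0163) and the carboxypeptidase gene Cpm by 1.54 ± 0.50 (SE, adjusted p = 0.0496). The call of Cpm was lost in 19 of 28 alternatives, among them no scaling, normexp and the mean over probes.

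Markers of the salivary glands were read beside both families, because neighbouring tissue can be taken with a thyroid. Of 31 listed genes 27 had a probe and 23 were measured. None passed on the normal diet by limma (median 0.07), where 1 was lower and 1 higher at an unadjusted p under 0.05. On low iodine Fgf23, a phosphate-regulating hormone gene, was higher in KO2 by 1.02 ± 0.27 (SE, adjusted p = 0.0161), and 22 did not pass (median −0.16). This value turned to −0.0020 with the mean over the gene's probes. On the normal diet 15 to 18 of the 27 genes were well above background per WT array and 12 to 18 per KO2 array. Amy1, Prh1, Lpo, Egf, Ren1, Ren2, Aqp5, Bhlha15, Zg16 and Fgf23 were so on all 18 arrays. By contrast, Smgc, Smr2, Smr3a, Prol1, Prb1, Prpmp5 and Crisp3 were well above background on 0 of 10 normal-diet arrays. Over all spots, 76.7% to 90.6% were well above background on low-iodine arrays and 60.1% to 75.7% on normal-diet arrays. Detection is therefore not directly comparable between the diets. On the 4 WT low-iodine arrays, where Dcpp levels were highest, Prol1, Prb1 and Prpmp5 were well above background on 1, Smgc, Mucl2 and Crisp3 on 2, and Smr2 and Smr3a on 4, and Smr2 and Smr3a were so on all 4 KO2 low-iodine arrays too. The mean of the 27 genes ran from −5.04 to −4.23 in WT and −5.02 to −4.08 in KO2 on the normal diet, and from −3.86 to −2.23 in WT and −3.63 to −3.12 in KO2 on low iodine. The WT low-iodine array with the highest salivary mean (replicate 2, −2.23) had the lowest Dcpp levels of its group, but it stands apart as an array. Its median signal was 191.5 against 76.0 to 81.6 on the other 3 WT arrays, and it was also highest of them for the kinin list (−1.64), the kallikrein-related list (−2.30) and the squamous list (−1.55). The part of salivary tissue in the Dcpp levels was not tested.

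Some genes of other lists also differed on the normal diet, and no list was tested as a group. Of 18 airway secretory and gland markers 2 were lower in KO2, 1 was higher and 15 did not pass, with a median of −1.59. The secreted Bpifb1 (−2.01 ± 0.36 SE, adjusted p = 0.0104) and the goblet cell gene Clca1 (−3.28 ± 0.76 SE, adjusted p = 0.0419) were lower, and the secretory cell factor Spdef was higher (2.88 ± 0.52 SE, adjusted p = 0.0108). The list mean ran from −1.45 to −0.73 in WT and from −3.28 to −1.69 in KO2, without overlap, and on low iodine from −3.54 to −0.22 in WT and −3.10 to −2.04 in KO2, where no gene passed and 1 was lower and 1 higher at an unadjusted p under 0.05. KO2 replicate 4, the KO2 array with the highest kallikrein levels, had a list mean of −2.41, within the KO2 range. The call of Clca1 was lost with slide as a block and in 18 of 28 alternatives. That of Bpifb1 was lost in 2 of 28, among them normexp, where the difference was −0.51. Bpifb1 was well above background on 3 of 5 KO2 normal-diet arrays.

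Of 6 thymic epithelium markers Prss16 (−4.37 ± 0.77 SE, adjusted p = 0.00976), Ccl25 (−3.46 ± 0.76 SE, adjusted p = 0.0309) and Psmb11 (−5.19 ± 1.21 SE, adjusted p = 0.0426) had lower normal-diet levels in KO2, with a median of −3.86 and list means from −4.01 to 1.09 in WT and −4.98 to −1.31 in KO2. WT replicate 1, the lowest WT array of that list (−4.01), was also the lowest WT array for Klk1, Klk1b3 and Klk1b4 and next to the lowest for Klk1b9 and Klk1b24. WT replicate 5, with a list mean of 0.88, was the lowest WT array for Klk1b9 and Klk1b24. KO2 replicate 4, the KO2 array with the highest kallikrein levels, had a list mean of −4.24. The highest KO2 list mean (−1.31) was that of replicate 2. The calls of Ccl25 and Psmb11 were lost with slide as a block and in 9 and 18 of 28 alternatives. Of 10 squamous and basal epithelium markers the keratins Krt14 (−1.52 ± 0.29 SE, adjusted p = 0.0150) and Krt5 (−2.75 ± 0.64 SE, adjusted p = 0.0434) were lower, with a median of −0.37. The list means overlapped, from −3.29 to −2.66 in WT and −3.86 to −3.07 in KO2, and the call of Krt5 was lost with slide as a block and in 16 of 28 alternatives. On low iodine neither list had a call (medians −0.05 and 0.04), nor a gene with an unadjusted p under 0.05. The part of these tissues in the kallikrein differences was not tested.

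On low iodine, where the Dcpp genes differed, 3 of 9 airway ciliated cell markers were lower in KO2 and 0 were higher (median 0.17). These were the axonemal dynein gene Dnah5 (−3.25 ± 0.52 SE, adjusted p = 5.21e-04), the ciliary regulator Foxj1 (−2.07 ± 0.40 SE, adjusted p = 0.00264) and Tppp3 (−1.43 ± 0.36 SE, adjusted p = 0.0132). The mean of 10 such genes ran from −0.84 to −0.24 in WT and −1.44 to −0.84 in KO2. None passed on the normal diet (median −0.64), where 4 were lower and 1 higher at an unadjusted p under 0.05. Of 5 C cell markers Calca (1.20 ± 0.19 SE, adjusted p = 5.76e-04), Chgb (1.42 ± 0.23 SE, adjusted p = 6.07e-04) and Scg2 (1.37 ± 0.34 SE, adjusted p = 0.0110) were higher in KO2 on low iodine (median 1.20) and none passed on the normal diet (median 0.11), where 1 was lower at an unadjusted p under 0.05. The part of these cells in the Dcpp differences was not tested.

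Of 9 thyroid follicular markers the iodide symporter Slc5a5 (−3.92 ± 0.44 SE, adjusted p = 2.70e-05) and the iodotyrosine deiodinase Iyd (−0.72 ± 0.22 SE, adjusted p = 0.0398) were lower on low iodine and the lineage factor Nkx2-1 was higher (0.70 ± 0.15 SE, adjusted p = 0.00550), with a median of −0.04. On the normal diet the anion exchanger Slc26a4 was lower (−2.48 ± 0.35 SE, adjusted p = 0.00360), and Nkx2-1 was higher (0.61 ± 0.14 SE, adjusted p = 0.0368), with a median of 0.18. This call of Nkx2-1 was lost with slide as a block and in 15 of 28 alternatives. Markers of parathyroid (6 genes), skeletal muscle (10) and brown fat (7) had no call on either diet. Their medians were −0.86, 2.39 and 0.20 on the normal diet and −0.07, −1.87 and −0.60 on low iodine. At an unadjusted p under 0.05, 2 parathyroid genes were lower on the normal diet, and 1 brown fat gene was lower and 1 higher on low iodine. Their brightest genes were Chga (−1.23 ± 0.94 SE on the normal diet) and Pth (−1.42 ± 1.27), Tnni2 (2.44 ± 2.07) and Tnnc2 (2.70 ± 2.13), and Cidea (0.39 ± 0.50) and Cox8b (0.38 ± 0.55). Parathyroid list means were lowest in KO2 normal-diet replicate 3 (−0.62), which was also the lowest array for all 5 kallikreins, and ran from 2.13 to 3.35 in WT. On low iodine the lowest was KO2 replicate 1 (0.54). That array was the highest of its group for Klk1, Klk1b3, Klk1b4 and Klk1b9, though not for Klk1b24. The part of these tissues in the kallikrein and Dcpp differences was not tested.

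The sex of the mice is not labelled, and several mouse kallikreins are known to differ between the sexes in salivary gland, so sex-linked genes were read on every array. None of 5 sex-linked genes passed on either diet, nor had an unadjusted p under 0.05 (medians 0.62 and 1.93). On the normal diet Eif2s3y, a gene of the Y chromosome, was well above background on 0 of 10 arrays, and Xist, the RNA of the inactive X chromosome, was between 2.11 and 3.29 on 9 arrays and −5.64 on KO2 replicate 5. That array is the one with the highest Dcpp levels of its group. On low iodine Eif2s3y was 2.53 and 2.01 in WT replicates 1 and 2 and −7.59 and −5.55 in replicates 3 and 4. In KO2 replicates 1 to 4 it was 2.82, 2.57, 2.05 and −3.85. Arrays with high and with low levels were thus present in both genotypes, in unequal numbers. Dcpp1 was 6.11 and 5.29 on the WT arrays with high Eif2s3y and 6.23 and 5.86 on those with low Eif2s3y, and it was −0.61 on the KO2 array with low Eif2s3y, at the bottom of its group. Klk1b4 was −0.97, −1.28 and −2.60 on the KO2 arrays with high Eif2s3y and −2.42 on the other. The part of sex in these differences, and in those between the diets, was not tested.

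**Figure D4:**
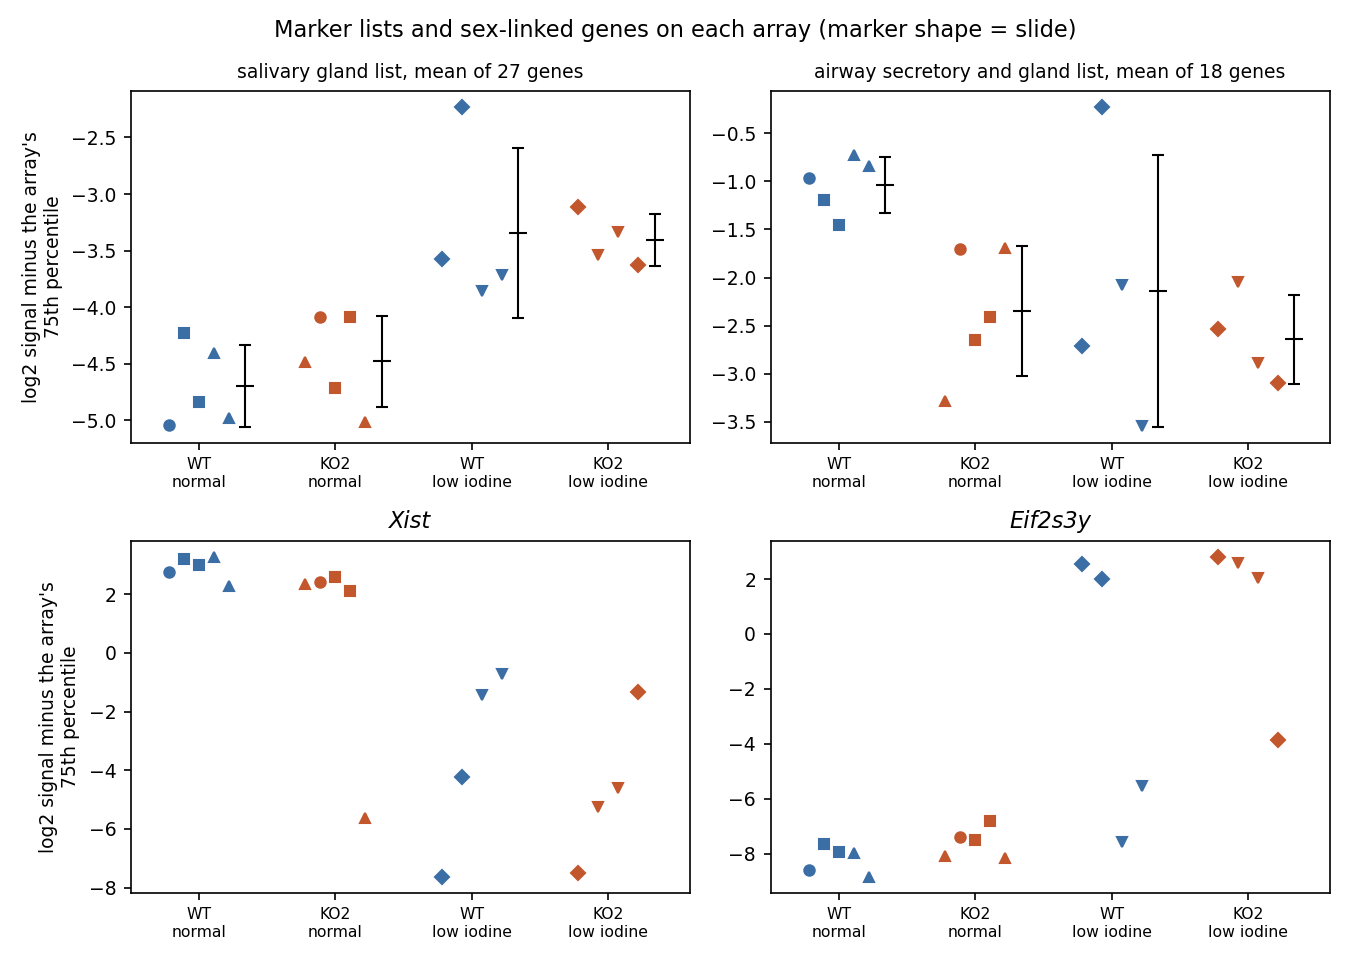
Mean level of the salivary gland list (27 genes) and of the airway secretory and gland list (18 genes), and the levels of Xist and Eif2s3y, on each array (log2 signal minus the array's 75th percentile); blue is WT, orange is KO2, the marker shape is the slide, and black bars in the upper panels are the group mean ± SD (n = 5 on the normal and 4 on the low-iodine diet). The salivary list overlaps between genotypes on both diets, the airway list does not overlap on the normal diet, and Xist is low on 1 KO2 normal-diet array (−5.64).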

How the data were processed

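Thyroid RNA of 18 samples was measured on single-colour Agilent arrays (45018 spots each). Per the labels' protocols, total RNA was extracted with an Ambion kit, amplified by the NuGEN Ovation Pico system and then Cy3-labelled. The submitters' processing notes name Agilent Feature Extraction 12. Per the file headers, arrays of the normal diet had release 12.0.0.7 (scanner G2505C) and the low-iodine arrays release 12.0.3.1 (scanner G2600D). The deposited processed signal is an intensity, from which background was already subtracted per the file headers. The deposited summary table holds the same intensity (ratio 1 to the scanner value on every array).

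From these, log2 of the processed signal minus the array's 75th percentile over non-control spots was computed (Python 3.11.15, pandas 2.3.3). Control and outlier-flagged spots were left out after scaling, spots of 1 probe were averaged, and 82 probes flagged on some array were dropped. Of 41174 probes 28223 (68.5%) matched 1 gene of the GRCm38.p6 RefSeq table by accession and 12951 matched none. Probes with 4 or more of 18 arrays well above background were kept (26518), and the brightest stood for each of 17928 genes. No spot was saturated. One limma model (limma 3.58.1, R 4.3.3) of the 4 group means gave differences, SEs and Benjamini-Hochberg adjusted p-values over all genes, with 0.05 as the threshold. Where a gene was below background on every array of a group, "at least" gives the brighter mean against the higher of the dim value and the lowest signal well above background, per array. The method was tested on simulated data.

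The 8 genes, the lists and the tests were chosen with earlier results of these data known, so no pattern here is independent support. Genes named beside the 8 were up to 4 calls of each list with the smallest p, otherwise its 2 brightest genes, and the 6 most correlated genes of each family. Single salivary markers and Klk1b1 were named for their detection after values were seen. Some list genes are not reported here. Beyond the numbers of mice in the design text nothing describes how samples of a group relate, so p-values measure only the spread between these samples, which may be technical. The alternatives were median scaling, quantile normalization, the deposited table without scaling, normexp background correction (offset 50, on the median spot and background signals, since the mean signal is not used here), other filters, the mean over probes, slide and replicate blocks, each diet alone, leaving out each array, and within-slide values. The diet contrasts were added after seeing the data. Promoter windows are from RefSeq, aligned with Biopython 1.88 (match 2, mismatch −3, gap opening −5, gap extension −2).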

Additional observations from a re-analysis of the deposited data

Results flagged for a closer look

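Among the members, 1 array of 1 group stood far from the rest. Klk1b4 in WT low-iodine replicate 4 was −4.03 against −2.82 to −2.63 on the other 3 arrays, a gap of 0.862 of the group's range. Klk1b3, by its brighter probe, and Klk1b4 were flagged for the side of the WT mean on which the KO2 arrays lay. Every KO2 array lay below it on the normal diet and above it on low iodine, with differences between the diets of 2.88 and 3.07. By the dimmer Klk1b3 probe, KO2 low-iodine replicates 3 (−1.77) and 4 (−1.81) lay below the WT mean (−1.72). The difference between the diets was 1.30 by that probe. Both genes were chosen on these values, and the difference was not tested independently of that choice.

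Among the other named genes, single arrays stood apart in 12 cases, each given as the gap over the range of the group. On the normal diet these were Clca1 in WT replicate 5 (0.794), Psmb11 in WT replicate 1 (0.79) and KO2 replicate 2 (0.802), Ccl25 in KO2 replicate 2 (0.756), Chga (0.831) and Pth (0.902) in KO2 replicate 3, and Xist in KO2 replicate 5 (0.94). On low iodine they were Clca1 in WT replicate 2 (0.914), Ace (0.87) and Eif2s3y (0.884) in KO2 replicate 4, and Chga (0.87) and Pth (0.907) in KO2 replicate 1. In all 13 of 172 gene and group combinations were flagged, and chance flags about 1 in 20.

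The genotype difference itself differed between the diets for 3 of the other named genes by the limma interaction term. It was higher on low iodine for Bpifb1 (2.48, adjusted p = 0.0324) and Chgb (1.39, adjusted p = 0.0372) and lower for Slc5a5 (−3.37, adjusted p = 0.0102). The call was lost in 12 of 27 alternatives for Bpifb1, whose value was 0.68 with normexp, in 14 of 27 for Chgb and in 0 of 27 for Slc5a5.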

How the results depend on the processing

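The kallikrein and Dcpp genes had 844 values under the alternatives, which cover the members and the non-members Klk1b8, Klk1b11, Klk1b27 and Klk8. Of these values 773 kept their direction and side of the threshold or moved by less than the spread. A further 62 fell short of the threshold, 9 moved further and 0 changed sign after a call. Of 752 values of the other named genes, 594 kept both, 157 fell short and 1 reversed, Fgf23 on low iodine with the mean over probes (−0.0020). The median of all genes moved from 0.04 to −0.11 on the normal diet and from −0.02 to −0.29 on low iodine without scaling, and to 0.13 on low iodine with median scaling. Calls lower and higher over all genes were 161 and 92 on the normal diet and 1284 and 1399 on low iodine. They were 269 and 28, and 1637 and 255, without scaling, 151 and 54 on the normal diet with median scaling, 129 and 56 there with quantile normalization, and 735 and 900 on low iodine with median scaling. Without KO2 normal-diet replicate 4 they were 430 and 249 on the normal diet and without replicate 3 they were 82 and 42. With low-iodine arrays alone they were 965 and 711, and on normal-diet arrays alone 0 and 3.

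Median scaling gave 1 list gene higher in KO2 on the normal diet (3 in the reported fit), and diet medians (low iodine minus normal) of the kallikreins of −2.93 in WT (−1.95 reported) and 0.32 in KO2 (1.13). Quantile normalization gave 7 list genes lower on the normal diet (11), 17 higher on low iodine (7), 6 members past the threshold for the interaction (3) and a kallikrein diet median in WT of −3.08. Without scaling, 1 list gene was higher on the normal diet, 2 on low iodine, and 1 member passed for the interaction. Normexp gave 5 list genes lower on low iodine (8), an interaction median of the kallikreins of 1.98 (2.88), 6 members for the interaction and a kallikrein diet median in WT of −1.05. The mean over probes gave 4 list genes higher on low iodine. Slide as a block gave 6 list genes lower on the normal diet and 1 member for the interaction. Normal-diet arrays alone gave 0 members, 0 list genes lower and 0 higher. The Dcpp median on the normal diet (−0.13) was −2.69, −1.86 and 2.56 within slides 1, 2 and 3. The cause of these shifts was not tested. Leaving out each array gave 5 to 16 list genes lower and 1 to 6 higher on the normal diet, 6 to 10 lower and 5 to 9 higher on low iodine, 0 to 6 members for the interaction, and a Dcpp median on the normal diet of −1.13 to 0.46. The share of all genes passing for the interaction was 1.23% in the reported fit and was not counted under the alternatives. The counts of members for the interaction therefore describe the members only. The diet medians were added after seeing the data.

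Whether the replicate numbers pair the samples is not given, and the reported fit did not pair them. Same-numbered WT and KO2 arrays correlated at −0.04 to 0.32 in their deviations. On the normal diet WT replicates 1 to 4 matched another KO2 number better, and replicate 5 matched its own. On low iodine WT replicates 1, 2 and 4 matched their own number best, and replicate 3 matched KO2 replicate 2. With the replicate block, 1 list gene was higher on the normal diet and 13 on low iodine. Dim probes limit the Dcpp values on the normal diet.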
